A study of Bos taurus with 11 samples.

Results

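The signalling family of transforming growth factor beta (TGF-beta) was followed through the mammary gland of young heifers, from its ligands and their antagonists to receptors, SMADs and ID target genes. From it, 58 genes were taken by symbol out of the 16279 genes of the deposited table. The rule on symbols used no measured value, but it was chosen with earlier results of these data known. The 58 genes comprise the TGF-beta ligands and latent TGF-beta binding proteins (LTBP), the bone morphogenetic proteins (BMP), the growth differentiation factors (GDF) and the inhibin and activin subunits. They also comprise secreted antagonists such as noggin, chordin, gremlin and follistatin, the receptors of the family, the pseudoreceptor BAMBI, the SMADs and ID1 to ID4. Messenger RNA was compared between parenchyma, the region that holds the ducts (n = 4, heifers 1, 3, 4 and 5), close stroma (n = 3, heifers 3, 4 and 5) and far stroma (n = 4, heifers 1, 3, 4 and 5). Every animal was an untreated Holstein heifer of 10 to 12 months, so the groups share breed, age and the absence of treatment and differ in region, as far as the labels say. The samples were pieces of whole tissue, each a mixture of cell types, and the labels do not state how the regions were cut or how far apart they lay. The close stroma of heifer 4 was recognised by a column name that carries a final letter of unexplained meaning, and counts without it stand beside the main ones.

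Ligands of this family are secreted dimers that bring together type I and type II receptor kinases on the cell surface. The receptors phosphorylate SMAD proteins, SMAD2 and SMAD3 after TGF-beta or activin and SMAD1, SMAD5 and SMAD9 after BMP, which enter the nucleus with SMAD4 and change transcription. Antagonists outside the cell bind ligands before they reach the receptors, whereas SMAD6 and SMAD7 act as inhibitors inside it. In the mouse mammary gland, TGF-beta restrains growth and branching of the ducts, BMP4 and noggin take part in the formation of the bud, and the activin subunit INHBB is needed for full duct elongation. In mouse fat tissue, BMP ligands steer precursor cells towards adipocytes, and activin and GDF signals through ACVR1C limit the breakdown of stored fat.

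Recovered reads numbered 7274474 to 11156909 per sample, and 233 to 1128 of the genes in the table stood at 0, with the 4 highest such counts in far stroma. Values below are normalised counts, listed in the order of the heifers given above, and levels are not compared between genes because transcript lengths were not used. The 11 luminal epithelium markers summed to 35320.4 to 42399 in parenchyma, 16998 to 35129.8 in close stroma and 263 to 445 in far stroma, where ELF5 and FOXA1 were at 0 in some samples. The 7 basal and myoepithelial markers summed to 7929 to 9857, 3839 to 7425 and 576 to 1385 in the same order, and TP63 was at 0 in every far stroma sample. The libraries labelled close stroma therefore held epithelial messenger RNA far above the level of far stroma, most in heifer 4 (luminal sum 35130) and least in heifer 3 (16998). The 8 adipocyte markers summed to 1672 to 2754 in parenchyma, 48201 to 179773 in close stroma and 215757 to 286681 in far stroma, and no adipocyte marker was at 0 anywhere. Fibroblast markers (7 genes) summed to 59914 to 173107, 49902 to 209521 and 208814 to 462723, and blood endothelium markers (7 genes) to 7423 to 9286, 12346 to 26342 and 23276 to 35766. Markers of T and NK cells (6 genes, 3777 to 5099, 1937 to 2307 and 200 to 598) and of B and plasma cells (5 genes, 2061 to 4263, 524 to 1529.6 and 91.2 to 384) were highest in parenchyma. Smooth muscle and pericyte markers (7 genes) summed to 10324 to 14272, 8099 to 10771 and 5972 to 9066, macrophage markers (5 genes) to 2959 to 4077, 2560.2 to 3399 and 2366 to 9039, and mast cell markers (3 of 4 listed) to 562 to 951, 716 to 1085 and 727 to 1462, with MS4A2 at 0 in a parenchyma sample. The part of these marker levels in the differences below was not tested. In such bulk samples, fewer cells of a type and less RNA per cell cannot be told apart.

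Of the 58 genes, 55 had a mean of at least 10 in some region and were tested, and GDF9, GDF15 and BMPR1B were not. Of the 55, 4 reached that mean in 1 region only, CHRDL2 and GDF2 in parenchyma and GDF5 and GDF6 in far stroma, so their differences follow in part from the limit itself. CHRDL2, GDF2 and GDF5 are among the members counted next as called in parenchyma against far stroma. In parenchyma against far stroma, 10 members rose and 21 fell at a limma adjusted p under 0.05, which is 18.2% and 38.2% of those tested, whereas 26.1% and 24.0% of all 14596 genes tested did so. Of the members, 6 rose and 18 fell at least 2-fold, and the median log2 difference was -0.24 over the members and 0.06 over all genes. With each library scaled to its total, 13 members were higher and 18 lower. That scaling shifted all genes by a median of 0.42 on the log2 scale. The shares of all genes above are therefore not the background for the counts under it. In close stroma against far stroma, 4 members rose and 11 fell (7.27% and 20%), beside 11% and 5.99% of all genes, with medians of -0.39 for the members and 0.00 for all. In parenchyma against close stroma, 3 rose and 8 fell (5.45% and 14.5%), beside 2.02% and 5.10% of all genes, with medians of -0.15 and 0.04. Far stroma had the highest mean of the regions for 30 of the 58 genes, parenchyma for 18 and close stroma for 10, with GDF9, GDF15 and BMPR1B included. The matching shares of all genes were not computed, so these 3 counts are not read as a trait of the family.

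**Figure D1:**
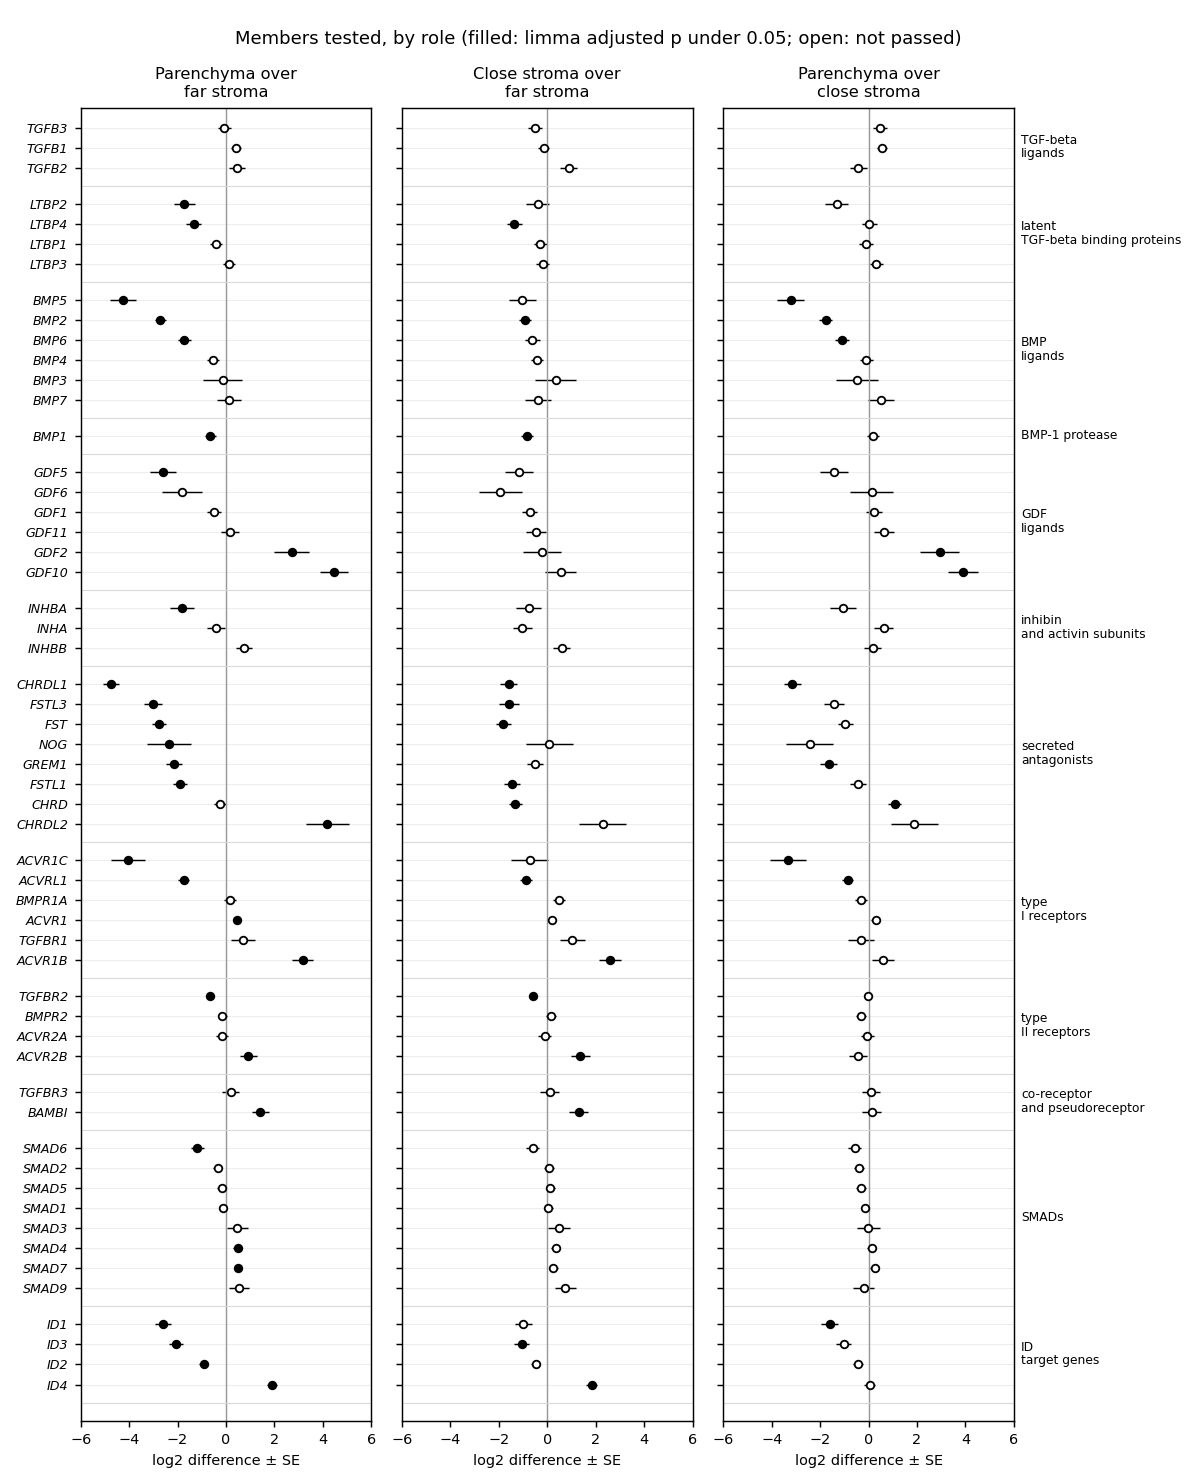
Log2 differences between regions (x axis, log2(value + 1) scale) of the 55 members tested, by role (y axis), for parenchyma over far stroma, close stroma over far stroma and parenchyma over close stroma. Points are fitted differences with standard errors, filled where the limma adjusted p was under 0.05. In the left panel 21 filled points lie left of 0 and 10 lie right of it, with CHRDL1 at -4.75 and GDF10 at 4.45.

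Most of these counts depended on single libraries, but members lower in parenchyma than in far stroma numbered 19 to 21 whichever library was left out. Counts of all genes without a library are not given here. The changes below are therefore not read as a trait of the family. Without the parenchyma of heifer 3 or 4, 6 members rather than 10 were higher in parenchyma than in far stroma. Without the close stroma of heifer 4 the close stroma comparison with far stroma gave 2 higher and 3 lower, and without that of heifer 5 it gave 2 and 4. Between parenchyma and close stroma, 3 members were lower without the close stroma of heifer 3 and 5 without the parenchyma of heifer 4. In that comparison 1 member was higher without the parenchyma of heifer 1 or 5 or without the close stroma of heifer 3, 4 or 5.

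Among the members, most secreted antagonists of BMP and activin were lower in parenchyma than in far stroma. Of these 8, 6 fell in parenchyma against far stroma (CHRDL1, FSTL3, FST, NOG, GREM1 and FSTL1), CHRDL2 rose and CHRD did not pass. Of all genes tested, 24.0% fell and 26.1% rose in this comparison. The NOG call did not hold by edgeR or by DESeq2. Of 9 antagonists tested outside the members, 4 rose, 0 fell and 5 did not pass. CHRDL1 (ENSBTAG00000004432), a chordin-like protein that binds BMPs, had 404, 354, 389.5 and 769.9 in parenchyma, 7164, 2101 and 4399.6 in close stroma and 13380.3, 12249, 10156 and 13646 in far stroma. The 3 regions did not overlap, and far stroma was the highest in every heifer. Its log2 difference was -4.75 ± 0.33 SE (adjusted p = 2.98e-07) in parenchyma over far stroma, -1.60 ± 0.36 (0.0091) in close over far stroma and -3.15 ± 0.36 (0.000282) in parenchyma over close stroma. Within close stroma the sample of heifer 3 had the most CHRDL1 and that of heifer 4 the least, the same order as the adipocyte marker sum (179773 in heifer 3, 48201 in heifer 4 and 87712 in heifer 5), whose part in it was not tested.

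Follistatin (FST, ENSBTAG00000003329), which neutralises activins, had 71.6, 91.9, 94.5 and 86.1 in parenchyma, 287, 99.4 and 166 in close stroma and 801, 484, 658 and 485 in far stroma. Parenchyma samples lay close together, under every close stroma sample, and all far stroma samples lay above both. FST fell in parenchyma (log2 -2.78 ± 0.29 SE, adjusted p = 7.21e-06) and in close stroma (log2 -1.81 ± 0.31 SE, adjusted p = 0.00144) against far stroma. The parenchyma to close stroma difference did not pass (log2 -0.96 ± 0.31 SE, adjusted p = 0.082). FST passed there without the close stroma of heifer 4 (adjusted p = 0.0127). For FST the same was seen by edgeR or by DESeq2 (adjusted p = 0.0126 to 0.0455). FSTL3, a related activin-binding protein, had 135, 86.2, 83.8 and 189.5 in parenchyma, 397, 319 and 247 in close stroma and 694, 583, 2229 and 905 in far stroma. Heifer 4 stood above the other far stroma samples, and no region overlapped another. FSTL3 fell in parenchyma (log2 -3.02 ± 0.39 SE, adjusted p = 4.13e-05) and in close stroma (log2 -1.59 ± 0.42 SE, adjusted p = 0.0208) against far stroma. The FSTL3 call of close against far stroma was lost without the close stroma of heifer 4 or 5 (adjusted p = 0.0729 to 0.0972). Against close stroma, parenchyma had a log2 difference of -1.43 ± 0.42 SE that did not pass (adjusted p = 0.0592). FSTL3 passed there without the parenchyma of heifer 5 or the far stroma of heifer 4 (adjusted p = 0.0148 to 0.0489). For FSTL3 the same was seen with library total scaling, by DESeq2 or in a fit of the 2 regions alone (adjusted p = 0.0204 to 0.0483).

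FSTL1, a secreted glycoprotein of mesenchymal cells, had 4414, 2236, 2271 and 3285 in parenchyma, 5749.6, 2581 and 4209 in close stroma and 16176, 11429, 8155 and 9366 in far stroma. Far stroma did not overlap either of the other regions, whereas parenchyma and close stroma did overlap. It fell in parenchyma (log2 -1.90 ± 0.30 SE, adjusted p = 0.000228) and close stroma (log2 -1.46 ± 0.33 SE, adjusted p = 0.00866). The FSTL1 call of close against far stroma was lost without the close stroma of heifer 4 (adjusted p = 0.0571). Gremlin (GREM1), a BMP antagonist of connective tissue, had 338, 223, 229 and 263 in parenchyma, 1186, 722 and 632 in close stroma and 2073, 1108, 1252 and 619 in far stroma. Parenchyma lay under all other samples, while close and far stroma overlapped. GREM1 fell in parenchyma against far stroma (log2 -2.15 ± 0.32 SE, adjusted p = 0.000125) and against close stroma (log2 -1.65 ± 0.34 SE, adjusted p = 0.0128). The GREM1 call of parenchyma against close stroma was lost without the close stroma of heifer 3 (adjusted p = 0.0792).

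Noggin (NOG), which blocks BMP2 and BMP4, was near the limit of detection, with 0, 0, 1.78 and 11.9 in parenchyma, 7.67, 13.1 and 18.1 in close stroma and 1.96, 20.4, 9.03 and 37.1 in far stroma. No read fell on it in the parenchyma of heifers 1 and 3, and the groups overlapped through the parenchyma of heifer 5. The fall in parenchyma against far stroma (log2 -2.35 ± 0.90 SE, adjusted p = 0.0453) was lost without the parenchyma of heifer 1, 3 or 4, the close stroma of heifer 3, 4 or 5 or the far stroma of heifer 3, 4 or 5 (adjusted p = 0.051 to 0.134). For NOG the same was seen with library total scaling, with a pseudocount of 5, by edgeR, by DESeq2 or in a fit of the 2 regions alone (adjusted p = 0.0589 to 0.0833). Chordin (CHRD), the antagonist that BMP1-type proteases cleave, had 213, 148, 211 and 167 in parenchyma, 99.7, 89.1 and 72.5 in close stroma and 197, 154, 348 and 208 in far stroma. Close stroma was the lowest region, under every sample of parenchyma and far stroma, and these overlapped each other (log2 -0.24 ± 0.25 SE, adjusted p = 0.433). Close stroma had less CHRD than far stroma (log2 -1.31 ± 0.27 SE, adjusted p = 0.00484) and parenchyma had more than close stroma (log2 1.07 ± 0.27 SE, adjusted p = 0.0308). The CHRD call of parenchyma against close stroma was lost without the parenchyma of heifer 1, 4 or 5 or the close stroma of heifer 3, 4 or 5 (adjusted p = 0.0535 to 0.112). For CHRD the same was seen with heifers 3, 4 and 5 alone (adjusted p = 0.0821).

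CHRDL2, another chordin-like BMP binder, went the other way, with 297, 27.6, 7.13 and 18.3 in parenchyma, 15.3, 7.50 and 4.53 in close stroma and 0, 1.2, 1.13 and 1.61 in far stroma. Far stroma held 3 reads of it in all, against 456 in parenchyma and 29 in close stroma, and the parenchyma of heifer 1 stood far above every other sample. The pooled ratio was 107 (95% counting interval 36.4 to 521) for parenchyma over far stroma and 10.1 (95% counting interval 3.13 to 51.9) for close over far stroma, intervals that cover counting error only. Most of the parenchyma reads came from heifer 1, so the parenchyma ratio rests mainly on that animal. Its interval does not cover the spread between heifers. CHRDL2 entered the test through its parenchyma mean alone. Its rise in parenchyma against far stroma (log2 4.19 ± 0.89 SE, limma adjusted p = 0.00186), with no overlap, is therefore given as a description. The close stroma difference from far stroma did not pass (log2 2.29 ± 0.96 SE, adjusted p = 0.121). CHRDL2 passed there without the parenchyma of heifer 1 (adjusted p = 0.0264). For CHRDL2 the same was seen in a fit of the 2 regions alone or with heifers 3, 4 and 5 alone (adjusted p = 0.0404 to 0.0474). Parenchyma over close stroma did not pass (log2 1.89 ± 0.96 SE, adjusted p = 0.255), except by DESeq2 (adjusted p = 0.0144).

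**Figure D2:**
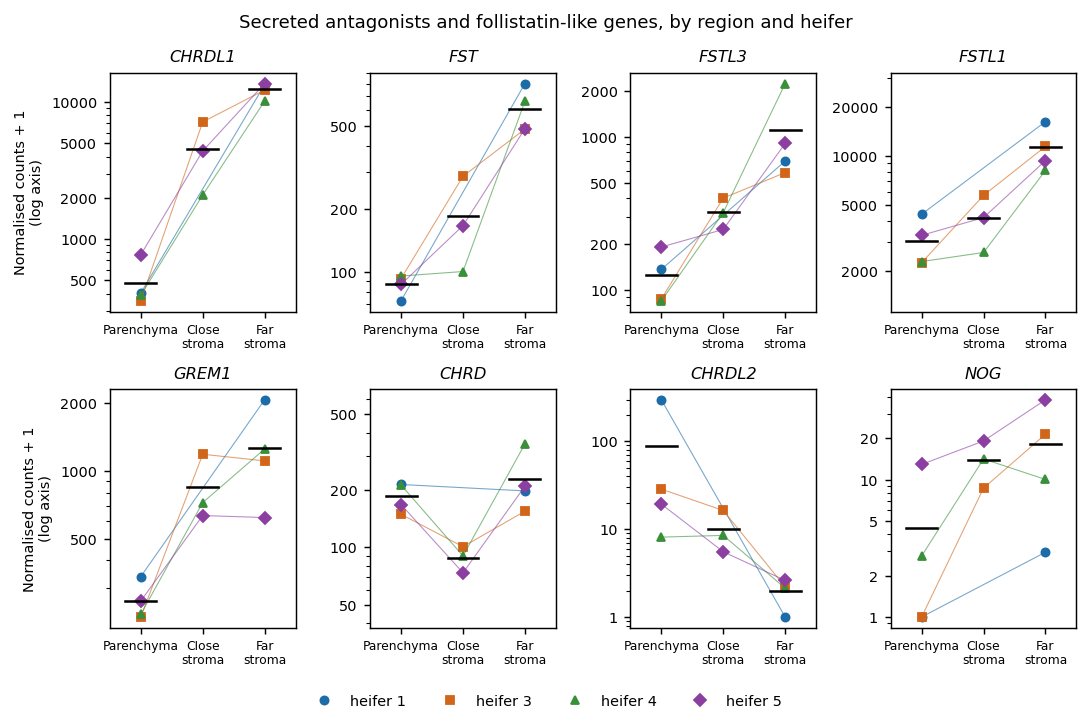
Normalised counts + 1 (log axis) of the secreted antagonists in parenchyma, close stroma and far stroma (x axis). Points are samples, lines join samples of a heifer and bars are region means. CHRDL1, FST, FSTL3, FSTL1 and GREM1 are lowest in parenchyma, whereas CHRDL2 is highest there and CHRD is lowest in close stroma.

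Among BMP ligands, BMP2, BMP5 and BMP6 fell in parenchyma against far stroma, and BMP3, BMP4 and BMP7 did not pass. BMP2 (ENSBTAG00000005111), a ligand that drives bone and fat cell fate and is made by endothelium among other cells, had 36.2, 39.8, 35.7 and 46.7 in parenchyma, 185, 125 and 113 in close stroma and 266, 212, 234 and 369 in far stroma. The regions formed separate steps in every heifer. BMP2 differed by -2.72 ± 0.23 SE on the log2 scale in parenchyma over far stroma (adjusted p = 1.41e-06) and by -1.78 ± 0.25 over close stroma (0.0011). Close stroma was lower than far stroma (log2 -0.94 ± 0.25 SE, adjusted p = 0.0222). The BMP2 call of close against far stroma was lost without the close stroma of heifer 4 or 5 or the far stroma of heifer 5 (adjusted p = 0.0572 to 0.116). For BMP2 the same was seen with library total scaling or in a fit of the 2 regions alone (adjusted p = 0.0554 to 0.0878).

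BMP5, a close relative of BMP6, had 3.77, 7.32, 8.02 and 33.0 in parenchyma, 176, 54.4 and 95.1 in close stroma and 162, 189.6, 174 and 294 in far stroma. Parenchyma of heifer 5 stood apart from its group and still lay under every stromal sample, and close stroma of heifer 3 lay within the far stroma range. BMP5 fell in parenchyma against far stroma (log2 -4.25 ± 0.53 SE, adjusted p = 3.35e-05) and against close stroma (log2 -3.22 ± 0.57 SE, adjusted p = 0.00532), and the stromal regions did not pass (log2 -1.03 ± 0.57 SE, adjusted p = 0.235). BMP6, which controls iron uptake through hepcidin in liver, had 57.3, 54.5, 53.5 and 63.2 in parenchyma, 160.1, 124 and 95.1 in close stroma and 171, 119, 201 and 314 in far stroma. It fell in parenchyma against far stroma (log2 -1.72 ± 0.28 SE, adjusted p = 0.000253). The fall against close stroma (log2 -1.10 ± 0.30 SE, adjusted p = 0.0437) was lost without the parenchyma of heifer 1, 3, 4 or 5, the close stroma of heifer 3, 4 or 5 or the far stroma of heifer 1 or 4 (adjusted p = 0.0511 to 0.211), or with the heifer as a block (adjusted p = 0.0673), or with heifers 3, 4 and 5 alone (0.0892), although parenchyma lay under every close stroma sample.

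BMP4, made by mesenchyme around the embryonic mammary bud in the mouse, had 199.8, 93.5, 185 and 125 in parenchyma, 138, 181 and 148 in close stroma and 255, 186, 213 and 187 in far stroma. Parenchyma overlapped both stromal regions, far stroma lay just above close stroma, and the difference of parenchyma from far stroma did not pass (log2 -0.53 ± 0.24 SE, adjusted p = 0.0861), except without the parenchyma of heifer 1 (adjusted p = 0.0397). For BMP4 the same was seen with the heifer as a block (adjusted p = 0.0286). BMP7, a ligand of kidney development that favours brown fat in the mouse, had 92.0, 45.5, 101 and 79.7 in parenchyma, 34.5, 82.5 and 51.6 in close stroma and 97.9, 50.4, 175 and 27.4 in far stroma. Its far stroma samples spread most, from heifer 5 to heifer 4, and no comparison passed (adjusted p = 0.86 for parenchyma against far stroma). BMP3, which opposes other BMPs in bone, ranged over 6.24 to 36.6 in parenchyma, 10.3 to 63.3 in close stroma and 3.23 to 48.9 in far stroma and passed in no comparison.

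Of the 6 GDF ligands tested, GDF10 and GDF2 rose and GDF5 fell in parenchyma against far stroma. GDF10 (ENSBTAG00000001019), a ligand close to BMP3 in sequence, had 1139, 563, 694 and 708 in parenchyma, 114, 23.4 and 43.5 in close stroma and 33.3, 38.4, 10.2 and 90.3 in far stroma. Every parenchyma sample lay above every stromal one, and close and far stroma overlapped. GDF10 rose in parenchyma against far stroma (log2 4.45 ± 0.58 SE, adjusted p = 4.53e-05) and against close stroma (log2 3.91 ± 0.62 SE, adjusted p = 0.00267), with no call between the stromal regions (log2 0.55 ± 0.62 SE, adjusted p = 0.577). Both parenchyma calls held under every alternative run. The luminal marker sum of close stroma came nearest to that of parenchyma in heifer 4 (35130 in close stroma and 37465 in parenchyma of that heifer). GDF10 in heifer 4 was 23.4 in close stroma and 694 in parenchyma. The part of epithelial or other cell content in the GDF10 difference was not tested.

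GDF2, also called BMP9, a circulating ligand of ACVRL1 made mainly in liver, had 35.4, 4.07, 2.67 and 10.99 in parenchyma, 0, 0 and 0.91 in close stroma and 0.98, 1.2, 0 and 0 in far stroma. It rested on 67 reads in parenchyma, 1 in close stroma and 2 in far stroma, most of the parenchyma ones in heifer 1. The pooled ratio was 23.6 (95% counting interval 6.28 to 199) in parenchyma over far stroma and 45.1 (95% counting interval 7.83 to 1809) over close stroma. GDF2 entered the test through its parenchyma mean alone (13.3 ± 15.2), so its differences from far stroma (log2 2.72 ± 0.73 SE, adjusted p = 0.00824) and from close stroma (log2 2.94 ± 0.79 SE, adjusted p = 0.0429) are given as a description. The second did not pass without the parenchyma of heifer 1, 3 or 5, the close stroma of heifer 3, 4 or 5 or the far stroma of heifer 1 or 3 (adjusted p = 0.0505 to 0.154). For GDF2 the same was seen with the heifer as a block (adjusted p = 0.0527), or with a pseudocount of 5, in a fit of the 2 regions alone or with heifers 3, 4 and 5 alone (0.0548 to 0.103). GDF5, a ligand of joint formation that entered through its far stroma mean alone, ranged over 0 to 4.07 in parenchyma, 4.53 to 8.63 in close stroma and 12.7 to 24.2 in far stroma (log2 -2.60 ± 0.53 SE, adjusted p = 0.00141 for parenchyma over far stroma). Its regions did not overlap, with parenchyma lowest, and its fall is given as a description. GDF1, GDF6 and GDF11 passed in no comparison, with GDF1 at 111 to 234, 121 to 135 and 139 to 357 and GDF11 at 14.7 to 18.9, 7.25 to 19.2 and 10.2 to 23.5 in parenchyma, close stroma and far stroma. GDF1 in close against far stroma (log2 -0.73 ± 0.33 SE, adjusted p = 0.14) passed with the heifer as a block (adjusted p = 0.0488). GDF6 was at 0.81 to 5.28, 0 to 13.4 and 3.39 to 27.6, and GDF6 passed against far stroma in parenchyma without the close stroma of heifer 3 or the far stroma of heifer 4 (adjusted p = 0.0347 to 0.0475). For GDF6 the same was seen in a fit of the 2 regions alone (adjusted p = 0.037). In close stroma it passed without the close stroma of heifer 3 (adjusted p = 0.0152). GDF9, an oocyte factor, and GDF15, a stress-induced ligand, were too low to test, GDF9 at 2.67 to 8.94, 2.81 to 6.71 and 2.94 to 10.8. GDF15 had 33 reads in parenchyma, 4 in close stroma and 2 in far stroma, a ratio of parenchyma over far stroma of 11.6 (95% counting interval 2.97 to 99.99).

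Of the 3 activin and inhibin subunits, INHBA fell in parenchyma against far stroma and the others did not pass. INHBA, which pairs to form activin A, had 6.03, 4.88, 2.67 and 3.66 in parenchyma, 17.3, 11.2 and 4.53 in close stroma and 28.4, 22.8, 10.2 and 12.9 in far stroma. Parenchyma lay under every far stroma sample and overlapped close stroma through heifer 5, and INHBA fell in parenchyma against far stroma (log2 -1.82 ± 0.48 SE, adjusted p = 0.00716). INHBB, the subunit of activin B, had 458, 919.5, 702 and 1075 in parenchyma, 375, 1189.8 and 668 in close stroma and 346, 431, 546 and 477 in far stroma. The regions overlapped, with the highest value in the close stroma of heifer 4 and the lowest in the far stroma of heifer 1, and parenchyma did not pass against far stroma (log2 0.76 ± 0.33 SE, adjusted p = 0.0762). It passed without the parenchyma of heifer 1 or the close stroma of heifer 3 or 4 (adjusted p = 0.0271 to 0.0391). For INHBB the same was seen with the heifer as a block (adjusted p = 0.042), or with library total scaling, by DESeq2 or in a fit of the 2 regions alone (0.011 to 0.0395). Close stroma likewise did not pass against far stroma (log2 0.59 ± 0.36 SE, adjusted p = 0.28) except without the close stroma of heifer 3 (adjusted p = 0.0474). INHA, the inhibin alpha subunit, ranged over 10.7 to 15.4 in parenchyma, 3.75 to 10.9 in close stroma and 14.7 to 18.1 in far stroma and passed in no comparison.

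**Figure D3:**
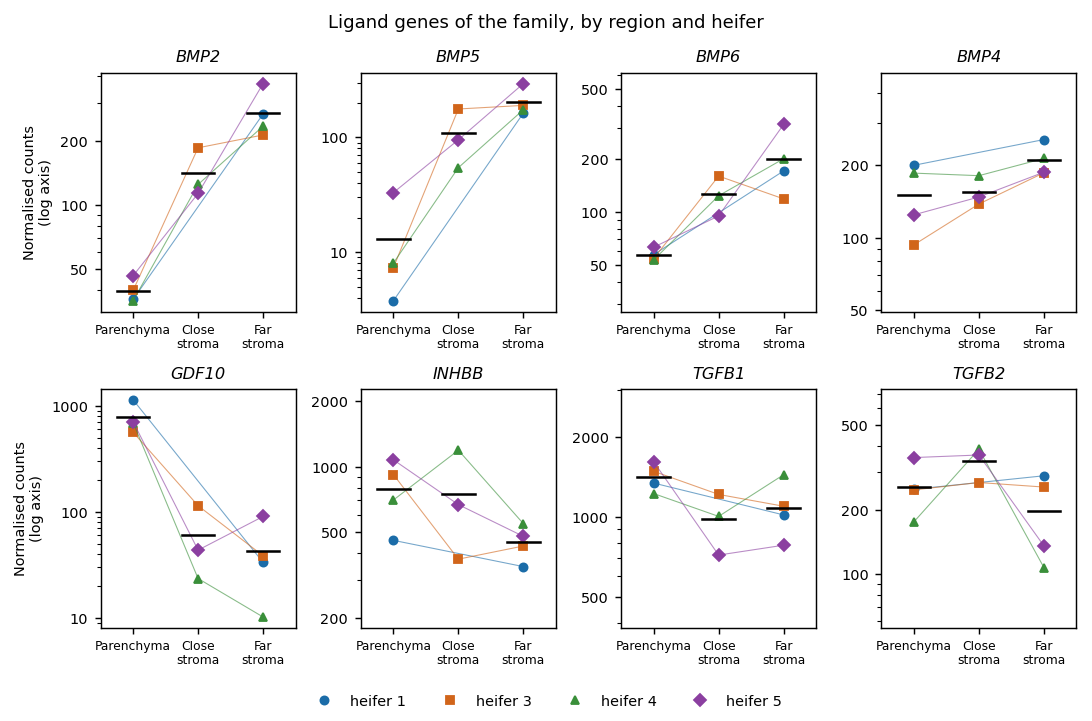
Normalised counts (log axis as labelled) of selected ligands in parenchyma, close stroma and far stroma (x axis), with points for samples, lines for heifers and bars for region means. BMP2 and BMP5 lie lowest in parenchyma and GDF10 lies highest there. For TGFB1 far stroma overlaps both other regions, and parenchyma lies above close stroma.

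None of the TGF-beta ligands passed the limma test in any region comparison, and none did by edgeR or DESeq2. TGFB1, the main TGF-beta of immune and stromal cells, had 1339.9, 1483, 1224 and 1610.4 in parenchyma, 1215, 1005 and 720.0 in close stroma and 1018, 1097, 1440.1 and 784 in far stroma. Parenchyma was above far stroma in 3 of 4 heifers and above close stroma in 3 of 3 without overlap, but neither difference passed (log2 0.41 ± 0.21 SE, adjusted p = 0.117 over far stroma; log2 0.55 ± 0.22 SE, adjusted p = 0.152 over close stroma). It passed over far stroma without the far stroma of heifer 4 (adjusted p = 0.0374). For TGFB1 the same was seen with library total scaling (adjusted p = 0.00242). TGFB2, the isoform that relies on betaglycan to reach its receptors, had 249.6, 248, 176 and 352 in parenchyma, 268, 384 and 361 in close stroma and 289, 256, 107 and 135 in far stroma. Its far stroma split between heifers 1 and 3, at the parenchyma level, and heifers 4 and 5, below every other sample. The close stroma difference from far stroma did not pass (log2 0.88 ± 0.34 SE, adjusted p = 0.0942) except without the far stroma of heifer 1 (adjusted p = 0.0353). For TGFB2 the same was seen with library total scaling or with heifers 3, 4 and 5 alone (adjusted p = 0.0324 to 0.049). TGFB2 in parenchyma over far stroma did not pass either (log2 0.46 ± 0.31 SE, adjusted p = 0.248), except with library total scaling (adjusted p = 0.041). TGFB3, an isoform raised in mouse mammary epithelium after weaning, had 386, 351, 309 and 567 in parenchyma, 427, 202 and 271 in close stroma and 537, 503, 361 and 290.3 in far stroma, regions that overlapped throughout (adjusted p = 0.867 for parenchyma against far stroma). At an unadjusted p under 0.05, 0 of the 3 ligands passed in parenchyma against far stroma, TGFB2 in close against far stroma and TGFB1 in parenchyma against close stroma.

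The LTBPs hold latent TGF-beta in the matrix, LTBP4 also being needed for elastic fibres. LTBP4 had 7591, 5325, 4209 and 11116 in parenchyma, 8629.6, 5345 and 5891 in close stroma and 14789, 13143, 19494 and 20519.8 in far stroma. All far stroma samples lay above all others, and the parenchyma of heifer 5 was the highest outside far stroma. LTBP4 fell in parenchyma (log2 -1.34 ± 0.29 SE, adjusted p = 0.0023) and in close stroma (log2 -1.37 ± 0.32 SE, adjusted p = 0.0108) against far stroma. The LTBP4 call of close against far stroma was lost without the close stroma of heifer 4 or 5 (adjusted p = 0.0526 to 0.0635). LTBP2, a microfibril protein that does not itself bind latent TGF-beta, had 235, 268, 171 and 339 in parenchyma, 1234, 448 and 425 in close stroma and 1381, 1334, 596 and 390.3 in far stroma. It fell in parenchyma against far stroma (log2 -1.71 ± 0.43 SE, adjusted p = 0.00568). Against close stroma it did not pass (log2 -1.32 ± 0.47 SE, adjusted p = 0.109), except with the heifer as a block (adjusted p = 0.0379), or by DESeq2 (0.0191), and the close stroma of heifer 3 resembled the far stroma of heifers 1 and 3. LTBP1 ranged over 808 to 1256 in parenchyma, 1009 to 1353 in close stroma and 940.1 to 2110.1 in far stroma, and LTBP3 over 3130.2 to 6061, 2546 to 3328 and 2364 to 4337. Neither passed in any comparison, with log2 differences of -0.40 ± 0.25 SE for LTBP1 and 0.13 ± 0.25 for LTBP3 in parenchyma over far stroma. BMP1, an astacin metalloprotease that matures procollagen and cleaves chordin and so is no BMP ligand, ranged over 416 to 514 in parenchyma, 317 to 608 in close stroma and 540.3 to 865 in far stroma. Its falls in parenchyma (log2 -0.64 ± 0.23 SE, adjusted p = 0.0338) and close stroma (log2 -0.82 ± 0.25 SE, adjusted p = 0.0397) were lost with library total scaling (adjusted p = 0.367 and 0.131). The parenchyma call was also lost without the parenchyma of heifer 1, 3 or 4 or the far stroma of heifer 3 or 4 (adjusted p = 0.0622 to 0.0904). For BMP1 the same was seen with heifers 3, 4 and 5 alone (adjusted p = 0.0562). The close stroma call was also lost without the parenchyma of heifer 1, 3 or 4, the close stroma of heifer 4 or 5 or the far stroma of heifer 3 or 4 (adjusted p = 0.0538 to 0.199). For BMP1 the same was seen by edgeR or in a fit of the 2 regions alone (adjusted p = 0.0696 to 0.104).

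Fibroblast markers moved with several of these ligands and matrix proteins, with 5 of 7 lower in parenchyma and 4 of 7 lower in close stroma than in far stroma, and all 8 adipocyte markers were lower in parenchyma. Their part was not tested. Reads of TGFB3, TGFB1 and GDF1 may include those of an overlapping gene (IFT43, HNRNPUL1 or CCDC97, and CERS1 or UPF1), because whether counting used strand is not known from the sources at hand.

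Of the 6 type I receptors tested, ACVR1B and ACVR1 rose in parenchyma against far stroma, ACVR1C and ACVRL1 fell, and BMPR1A and TGFBR1 did not pass. ACVR1B (ENSBTAG00000013555), the main type I receptor for activin, had 201, 261, 169 and 321 in parenchyma, 72.9, 270.0 and 183 in close stroma and 32.3, 43.2, 16.9 and 16.1 in far stroma. Every parenchyma and close stroma sample lay above every far stroma sample, and the close stroma of heifer 3, which also had the lowest luminal sum, lay nearest to far stroma. ACVR1B rose in parenchyma (log2 3.16 ± 0.42 SE, adjusted p = 5.33e-05) and in close stroma (log2 2.57 ± 0.45 SE, adjusted p = 0.00175) against far stroma, both under every alternative run, and did not pass between parenchyma and close stroma (log2 0.59 ± 0.45 SE, adjusted p = 0.458). ACVR1C, the type I receptor known from fat cells, had 0.75, 1.63, 0 and 0.92 in parenchyma, 40.3, 4.69 and 20.8 in close stroma and 79.3, 38.4, 12.4 and 14.5 in far stroma. It was near 0 in parenchyma and spread widely over the stromal samples, from the close stroma of heifer 4 up to the far stroma of heifer 1. ACVR1C fell in parenchyma against far stroma (log2 -4.05 ± 0.70 SE, adjusted p = 0.000422), and the fall against close stroma (log2 -3.32 ± 0.76 SE, adjusted p = 0.0200) was lost without the parenchyma of heifer 4 or the close stroma of heifer 3 or 5 (adjusted p = 0.0581 to 0.115). For ACVR1C the same was seen with a pseudocount of 5 (adjusted p = 0.0577). All 8 adipocyte markers fell in these comparisons too.

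ACVRL1 (ENSBTAG00000013843), the type I receptor of endothelium for GDF2 and BMP10, had 611, 554, 619.5 and 709 in parenchyma, 1641, 1022 and 873 in close stroma and 1696, 1605, 2626 and 2645 in far stroma. Parenchyma lay under all stromal samples, and close stroma of heifer 3 was within the far stroma range. ACVRL1 fell in parenchyma against far stroma (log2 -1.75 ± 0.22 SE, adjusted p = 4.31e-05), where 6 of 7 blood endothelium markers also fell. The fall against close stroma (log2 -0.87 ± 0.24 SE, adjusted p = 0.0494) was lost without the parenchyma of heifer 1, 3, 4 or 5 or the close stroma of heifer 3 or 4 (adjusted p = 0.0613 to 0.237). For ACVRL1 the same was seen with the heifer as a block (adjusted p = 0.0862), or with a pseudocount of 0.5, with no low-value filter or with heifers 3, 4 and 5 alone (0.0506 to 0.0888). Close against far stroma (log2 -0.88 ± 0.24 SE, adjusted p = 0.0269) was lost without the close stroma of heifer 4 or 5 or the far stroma of heifer 4 or 5 (adjusted p = 0.0684 to 0.141). For ACVRL1 the same was seen with library total scaling or in a fit of the 2 regions alone (adjusted p = 0.0729 to 0.0832). ACVR1, a type I receptor for BMPs, ranged over 688 to 858 in parenchyma, 461 to 697 in close stroma and 458 to 639 in far stroma, and its small rise in parenchyma (log2 0.46 ± 0.17 SE, adjusted p = 0.038) was lost without the parenchyma of heifer 1, 3, 4 or 5 or the far stroma of heifer 3, 4 or 5 (adjusted p = 0.0535 to 0.102). BMPR1A, the broad type I receptor of BMPs, had 280.5 to 335 in parenchyma, 314 to 448 in close stroma and 175 to 399 in far stroma and did not pass. BMPR1B was too low to test, with 7.54, 4.07, 9.81 and 5.49 in parenchyma, 2.88, 2.81 and 5.43 in close stroma and 7.83, 8.4, 1.13 and 3.23 in far stroma. TGFBR1, the type I receptor of TGF-beta, had 128, 152, 96.3 and 91.5 in parenchyma, 144, 143 and 143 in close stroma and 153, 150.03, 33.9 and 29.0 in far stroma. Its far stroma samples formed separate pairs, heifers 1 and 3 level with the other regions and heifers 4 and 5 below all of them, and no comparison passed (adjusted p = 0.241 for parenchyma and 0.194 for close stroma against far stroma).

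Of the 4 type II receptors, TGFBR2 fell and ACVR2B rose against far stroma. TGFBR2, which TGF-beta binds first, ranged over 1875 to 2417 in parenchyma, 1884 to 2584 in close stroma and 3016 to 3657 in far stroma, where every sample lay above the other regions. TGFBR2 fell in parenchyma (log2 -0.65 ± 0.15 SE, adjusted p = 0.0037) and in close stroma (log2 -0.61 ± 0.17 SE, adjusted p = 0.0246) against far stroma, but both calls were lost with library total scaling (adjusted p = 0.24 and 0.273). Close against far stroma was also lost without the close stroma of heifer 4 or 5 (adjusted p = 0.102 to 0.137). For TGFBR2 the same was seen in a fit of the 2 regions alone or with heifers 3, 4 and 5 alone (adjusted p = 0.0619 to 0.0746). ACVR2B, a type II receptor for activins and myostatin, had 18.9, 34.1, 24.1 and 23.8 in parenchyma, 23.0, 45 and 38.0 in close stroma and 10.8, 12, 9.03 and 21.0 in far stroma. Its rises in parenchyma (log2 0.92 ± 0.35 SE, adjusted p = 0.0434) and close stroma (log2 1.37 ± 0.38 SE, adjusted p = 0.0261) were fragile. The first was lost without the parenchyma of heifer 3, 4 or 5, the close stroma of heifer 5 or the far stroma of heifer 1, 3 or 4 (adjusted p = 0.0584 to 0.126). For ACVR2B the same was seen with the heifer as a block (adjusted p = 0.0504), or in a fit of the 2 regions alone or with heifers 3, 4 and 5 alone (0.0549 to 0.0782). The second was lost without the close stroma of heifer 4 or 5 or the far stroma of heifer 4 (adjusted p = 0.063 to 0.145). For ACVR2B the same was seen in a fit of the 2 regions alone or with heifers 3, 4 and 5 alone (adjusted p = 0.0542 to 0.0721). ACVR2A, the other activin type II receptor, ranged over 158 to 302 in parenchyma, 182 to 214 in close stroma and 150.1 to 281 in far stroma, and BMPR2, the type II receptor of BMPs, over 679.7 to 1025, 909 to 999 and 598 to 1079. Neither passed in any comparison. The co-receptor TGFBR3 (betaglycan), which presents TGFB2 and binds inhibin, had 5480.2, 3894, 2692 and 3212 in parenchyma, 3072, 3542 and 3795 in close stroma and 6729, 4031, 1959 and 2035 in far stroma. Far stroma spread over its whole range, heifer 1 highest and heifers 4 and 5 lowest, and TGFBR3 did not pass (adjusted p = 0.679 for parenchyma against far stroma).

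BAMBI, a receptor without a kinase that blocks BMP and activin signals, had 106, 171, 228 and 199 in parenchyma, 101, 214 and 173 in close stroma and 54.8, 43.2, 121 and 53.2 in far stroma. Heifer 4 had the highest value in each region, and only through its sample did far stroma overlap the other regions. BAMBI rose in parenchyma against far stroma (log2 1.42 ± 0.35 SE, adjusted p = 0.00502). The rise in close stroma (log2 1.30 ± 0.38 SE, adjusted p = 0.0355) was lost without the parenchyma of heifer 3, the close stroma of heifer 4 or 5 or the far stroma of heifer 1, 3 or 5 (adjusted p = 0.0502 to 0.184). For BAMBI the same was seen in a fit of the 2 regions alone or with heifers 3, 4 and 5 alone (adjusted p = 0.0528 to 0.0764).

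**Figure D4:**
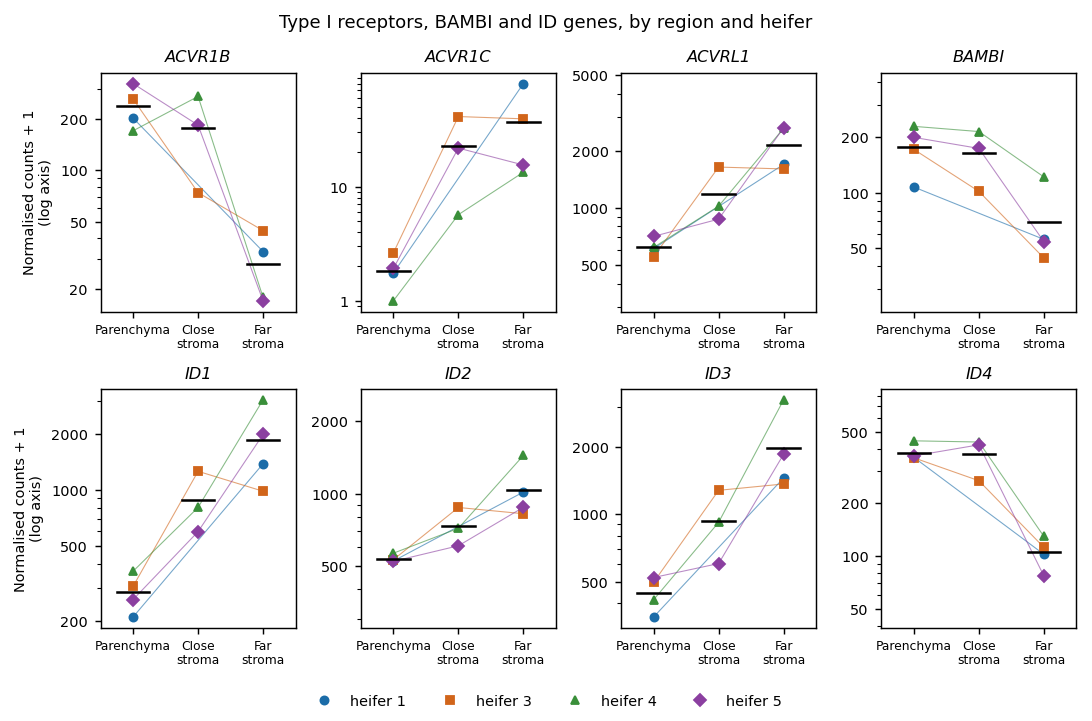
Normalised counts + 1 (log axis) of ACVR1B, ACVR1C, ACVRL1, BAMBI and the ID genes in parenchyma, close stroma and far stroma (x axis), with points for samples, lines for heifers and bars for region means. ACVR1B and ID4 are high in parenchyma and close stroma and low in far stroma, whereas ACVRL1, ACVR1C, ID1 and ID3 are lowest in parenchyma.

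Of the SMADs, which are used by most cells, 5 of 8 did not pass in any comparison, namely SMAD1, SMAD2, SMAD3, SMAD5 and SMAD9. SMAD6, an inhibitor of BMP signals abundant in endothelium, had 121, 141, 130.1 and 148 in parenchyma, 227, 205 and 176 in close stroma and 201, 228, 481 and 403 in far stroma. Parenchyma lay under every stromal sample, and heifers 4 and 5 were highest in far stroma. It fell in parenchyma against far stroma (log2 -1.18 ± 0.26 SE, adjusted p = 0.00227), while close stroma did not pass (log2 -0.60 ± 0.28 SE, adjusted p = 0.157). SMAD6 passed without the far stroma of heifer 1 (adjusted p = 0.046). SMAD7, the inhibitor of TGF-beta receptors, ranged over 348 to 439 in parenchyma, 244 to 406 in close stroma and 259 to 297 in far stroma, and SMAD4, the common partner, over 921 to 1096, 719 to 1008 and 535 to 856. The rise of SMAD7 in parenchyma against far stroma (log2 0.50 ± 0.17 SE, adjusted p = 0.0277) was lost without the parenchyma of heifer 3, 4 or 5 or the far stroma of heifer 1 or 3 (adjusted p = 0.0525 to 0.0734). For SMAD7 the same was seen with heifers 3, 4 and 5 alone (adjusted p = 0.0592). That of SMAD4 (log2 0.48 ± 0.17 SE, adjusted p = 0.0313) was lost without the parenchyma of heifer 1, 3 or 4 or the far stroma of heifer 4 or 5 (adjusted p = 0.0509 to 0.0902). SMAD4 in close against far stroma did not pass (log2 0.34 ± 0.18 SE, adjusted p = 0.21), except with library total scaling (adjusted p = 0.046). SMAD3, the signal carrier of TGF-beta and activin, had 239.8, 297, 159 and 286 in parenchyma, 255, 259 and 207 in close stroma and 318, 317, 133 and 64.5 in far stroma. As with TGFBR1, the far stroma of heifers 1 and 3 was at or above the other regions and that of heifers 4 and 5 below all of them (adjusted p = 0.385 for parenchyma against far stroma). The BMP carriers SMAD1 (468 to 535 in parenchyma, 488 to 672 in close stroma and 422 to 647 in far stroma) and SMAD5 (385 to 541, 528 to 567 and 370.2 to 648) overlapped across regions. SMAD9, the least studied of them, was at 21.4 to 47.6, 36.6 to 43.5 and 9.68 to 34.8. SMAD2, the partner of SMAD3, ranged over 301 to 378, 422 to 539 and 316 to 571 and did not pass in parenchyma against far stroma (log2 -0.33 ± 0.19 SE, adjusted p = 0.155). SMAD2 passed without the far stroma of heifer 4 (adjusted p = 0.026).

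ID genes, which BMP signals induce in many cells and whose proteins hold back helix-loop-helix transcription factors, split into ID1, ID2 and ID3, lower in parenchyma, and ID4, higher. ID1 (ENSBTAG00000016169) had 208, 304, 366 and 258 in parenchyma, 1257, 805 and 598 in close stroma and 1380.0, 983, 3034 and 1979 in far stroma. Parenchyma lay under all stromal samples, the close stroma of heifer 3 lay within the far stroma range, and the far stroma of heifer 4 was highest. ID1 fell in parenchyma against far stroma (log2 -2.60 ± 0.33 SE, adjusted p = 3.67e-05). Its fall against close stroma (log2 -1.60 ± 0.35 SE, adjusted p = 0.0177) was lost without the close stroma of heifer 3 (adjusted p = 0.103). For ID1 the same was seen with heifers 3, 4 and 5 alone (adjusted p = 0.052). Close against far stroma did not pass (log2 -1.0 ± 0.35 SE, adjusted p = 0.0718) except without the close stroma of heifer 3 or the far stroma of heifer 3 (adjusted p = 0.0235 to 0.0281). For ID1 the same was seen with the heifer as a block (adjusted p = 0.048), or by DESeq2 (0.0272). ID3 had 346, 495, 414 and 520.0 in parenchyma, 1276, 918 and 600.4 in close stroma and 1449.5, 1362, 3239 and 1849.9 in far stroma. The order of the far stroma samples was that of ID1, with heifer 4 highest and heifer 3 lowest. ID3 fell in parenchyma (log2 -2.08 ± 0.29 SE, adjusted p = 7.57e-05) and close stroma (log2 -1.06 ± 0.31 SE, adjusted p = 0.0348) against far stroma. The ID3 call of close against far stroma was lost without the close stroma of heifer 4 or 5 or the far stroma of heifer 4 or 5 (adjusted p = 0.0679 to 0.174). For ID3 the same was seen with library total scaling or in a fit of the 2 regions alone (adjusted p = 0.0788 to 0.0878). Parenchyma against close stroma did not pass (log2 -1.02 ± 0.31 SE, adjusted p = 0.0689). ID3 passed without the close stroma of heifer 5 or the far stroma of heifer 4 (adjusted p = 0.028 to 0.047). For ID3 the same was seen by DESeq2 or in a fit of the 2 regions alone (adjusted p = 0.0169 to 0.0371). ID2 had 523, 529, 563 and 521 in parenchyma, 874, 715 and 605 in close stroma and 1014, 823, 1441 and 876 in far stroma, without overlap of parenchyma and either stroma, and fell in parenchyma against far stroma (log2 -0.92 ± 0.18 SE, adjusted p = 0.00115).

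ID4 (ENSBTAG00000052562), which in the mouse mammary gland marks basal cells, had 359, 357, 446 and 366 in parenchyma, 265, 439 and 423 in close stroma and 101, 110.4, 128 and 75.8 in far stroma. Every parenchyma and close stroma sample exceeded every far stroma sample by over 2-fold. ID4 rose in parenchyma (log2 1.89 ± 0.21 SE, adjusted p = 1.31e-05) and in close stroma (log2 1.84 ± 0.23 SE, adjusted p = 0.000114) against far stroma under every alternative run, and parenchyma over close stroma was 0.05 ± 0.23 SE (adjusted p = 0.914). The 7 basal and myoepithelial markers, of which 6 rose in parenchyma and 5 in close stroma against far stroma, moved with ID4. So did the luminal markers, of which 11 of 11 rose in parenchyma and 11 in close stroma. With ID1 and ID3, 6 of 7 blood endothelium markers and 8 of 8 adipocyte markers fell in parenchyma against far stroma. In close against far stroma 5 of 8 adipocyte markers and 4 of 7 fibroblast markers fell, whereas 0 of 7 blood endothelium markers passed. The endothelium sum was 12346 to 26342 in close stroma and 23276 to 35766 in far stroma. The part of these cell types was not tested.

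Close stroma was also set against the midpoint of parenchyma and far stroma on the log2 scale, which asks whether it departs from an even mixture of the log values. An even mixture of the tissues adds counts, not log values, and so lies above this midpoint where the regions differ. A place above it is therefore given as a description. Of all genes tested by limma, 235 passed above it and 6 below. In this contrast 1 member lay above the midpoint (ID4, log2 0.89 ± 0.20 SE, adjusted p = 0.0465) and 1 below it (CHRD, log2 -1.19 ± 0.24 SE, adjusted p = 0.0207), or 1.82% each, beside 1.61% and 0.0411% of all genes. The ID4 value did not hold without the parenchyma of heifer 1, 3, 4 or 5, the close stroma of heifer 4 or 5 or the far stroma of heifer 1, 3 or 5 (adjusted p = 0.0548 to 0.345). For ID4 the same was seen with the heifer as a block (adjusted p = 0.0624), or with a pseudocount of 5 or with heifers 3, 4 and 5 alone (0.0545 to 0.12). The CHRD value did not hold without the parenchyma of heifer 4 or the close stroma of heifer 4 or 5 (adjusted p = 0.0508 to 0.177). For CHRD the same was seen with heifers 3, 4 and 5 alone (adjusted p = 0.0627). For the remaining 53 members, limma placed close stroma neither above nor below the midpoint at this n, and 10 members in all had an unadjusted p under 0.05.

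Differences among heifers within far stroma were chosen for description after their values were seen. Heifers 1 and 3 exceeded heifers 4 and 5 in TGFBR1, SMAD3, LTBP2, TGFB2 and TGFBR3, whereas heifers 4 and 5 were above heifers 1 and 3 in ID1, ID3, SMAD6, ACVRL1 and FSTL3. The far stroma of heifer 5 had the fewest reads of all samples, but that of heifer 4 had 10431459, near the 10557937 of heifer 1. Marker sums differed between the same pairs, with basal and myoepithelial markers at 1385 and 1218 in heifers 1 and 3 and 585 and 576 in heifers 4 and 5. That sum is not read as basal cells in far stroma. KRT14, KRT17, TP63 and OXTR of this list were each at 0 in some far stroma sample. ACTG2, also in it, was not higher in parenchyma than in far stroma (log2 -0.89 ± 0.60 SE, limma adjusted p = 0.24). Blood endothelium markers summed to 23276 and 26270.4 in heifers 1 and 3 and 34887 and 35766 in heifers 4 and 5, adipocyte markers to 215757 and 218352 in heifers 1 and 3 and 253045 and 286681 in heifers 4 and 5 and fibroblast markers to 384679.8 and 462723 in heifers 1 and 3 and 317399.9 and 208814 in heifers 4 and 5. T and NK cell markers summed to 598 and 352 in heifers 1 and 3 and 209 and 200 in heifers 4 and 5. The part of depth and of cell makeup in these splits was not tested.

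Other genes of the pathway, 72 of which were tested, gave 19 higher and 27 lower in parenchyma than in far stroma (median log2 -0.34), 9 and 12 in close stroma against far stroma (median -0.15) and 2 and 4 in parenchyma against close stroma (median -0.03). The member LTBP2, which is also a usual target gene, is left out of these counts. The shares of all genes given above are the background for these counts. The named genes are up to 2 per list and direction with the largest difference.

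Among proteases and activators of the ligands, 1 rose and 8 of 13 fell in parenchyma against far stroma. ITGB6, the epithelial integrin subunit that releases TGFB1 from its latent complex, had 496, 832, 447 and 612 in parenchyma, 357, 653 and 523 in close stroma and 0, 0, 0 and 1.61 in far stroma. A single read fell on it in the 4 far stroma libraries together, whereas parenchyma and close stroma overlapped. The pooled ratio was 2008 (95% counting interval 360.1 to 79339) in parenchyma and 1721 (95% counting interval 309 to 68030.5) in close stroma over far stroma. ITGB6 rose in both (log2 8.83 ± 0.35 SE, adjusted p = 4.35e-09, and log2 8.61 ± 0.38 SE, adjusted p = 2.89e-08), alongside all 11 luminal markers. Close stroma lay above the midpoint (log2 4.19 ± 0.34 SE, adjusted p = 4.44e-05). With 1 read in far stroma, the midpoint of ITGB6 depends on the 1 added before the log, so its place is a description. PCSK5, a proprotein convertase, fell (log2 -2.83 ± 0.41 SE, adjusted p = 0.000108), as did NRROS, which anchors latent TGF-beta on macrophages and microglia (log2 -1.39 ± 0.23 SE, adjusted p = 0.000281). PCSK5 also fell against close stroma (log2 -1.65 ± 0.44 SE, adjusted p = 0.0422). The PCSK5 call of parenchyma against close stroma was lost without the parenchyma of heifer 1, 3, 4 or 5 or the close stroma of heifer 3 or 5 (adjusted p = 0.0587 to 0.211). For PCSK5 the same was seen with heifers 3, 4 and 5 alone (adjusted p = 0.0584). In close against far stroma NRROS (log2 -0.78 ± 0.25 SE, adjusted p = 0.0474) and the integrin subunit ITGB5 (log2 -1.04 ± 0.26 SE, adjusted p = 0.0169) fell. NRROS lost its call without the parenchyma of heifer 1, 3, 4 or 5, the close stroma of heifer 4 or 5 or the far stroma of heifer 1, 3, 4 or 5 (adjusted p = 0.0509 to 0.247). For NRROS the same was seen with the heifer as a block (adjusted p = 0.0557), or with library total scaling, by edgeR, in a fit of the 2 regions alone or with heifers 3, 4 and 5 alone (0.067 to 0.178). ITGB5 lost its call without the close stroma of heifer 4 or 5 (adjusted p = 0.0777 to 0.0923).

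Matrix binders gave 3 higher and 6 lower of 11. The fibrillins, which anchor LTBPs and BMPs in microfibrils, went opposite ways. FBN1 had 4885, 2431, 2309.6 and 3562 in parenchyma, 4552, 2248 and 2969.6 in close stroma and 19815, 11610.3, 8447 and 6617 in far stroma, with far stroma above all other samples (log2 -1.76 ± 0.35 SE, adjusted p = 0.00119 for parenchyma; log2 -1.77 ± 0.38 SE, adjusted p = 0.00663 for close stroma). FBN2, the fibrillin of developing tissues, had 108, 30.9, 28.5 and 49.4 in parenchyma, 13.4, 10.3 and 23.6 in close stroma and 5.87, 3.60, 4.51 and 1.61 in far stroma, with parenchyma above far stroma throughout (log2 3.37 ± 0.48 SE, adjusted p = 0.000101). Its rise in close stroma (log2 1.78 ± 0.52 SE, adjusted p = 0.0348) was lost without the close stroma of heifer 4 or 5 or the far stroma of heifer 3, 4 or 5 (adjusted p = 0.0517 to 0.162). For FBN2 the same was seen with a pseudocount of 5 or in a fit of the 2 regions alone (adjusted p = 0.0572 to 0.0655). HTRA3, a serine protease that binds TGF-beta ligands, rose (log2 1.41 ± 0.39 SE, adjusted p = 0.0087) and the proteoglycan biglycan (BGN) fell (log2 -1.72 ± 0.40 SE, adjusted p = 0.0034) in parenchyma against far stroma. Decorin (DCN), a proteoglycan that binds TGF-beta, fell in close stroma (log2 -1.42 ± 0.24 SE, adjusted p = 0.00139), and EMILIN1, which restrains TGF-beta maturation, was higher in parenchyma than in close stroma (log2 1.06 ± 0.20 SE, adjusted p = 0.00775).

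MSTN (myostatin), an ACVR2B ligand best known from muscle, had 98.8, 118, 206 and 180.4 in parenchyma, 33.6, 109 and 136 in close stroma and 0, 0, 1.13 and 0 in far stroma. It too rested on 1 read in far stroma, and parenchyma overlapped close stroma. The pooled ratio over far stroma was 496 (95% counting interval 88.7 to 19619) in parenchyma and 315 (95% counting interval 56.1 to 12474) in close stroma, and both passed (log2 6.91 ± 0.47 SE, adjusted p = 2.06e-07; log2 6.06 ± 0.50 SE, adjusted p = 3.56e-06). Close stroma lay above the midpoint (log2 2.60 ± 0.45 SE, adjusted p = 0.00752), which for MSTN also depends on the 1 added before the log. Of the 9 genes listed as antagonists outside the 8 described, 4 rose in parenchyma against far stroma, namely SOSTDC1, KCP, BMPER and WFIKKN1. WFIKKN1 (log2 1.63 ± 0.63 SE, adjusted p = 0.0479) entered the test through its parenchyma mean alone (10.76). Its rise therefore follows in part from the limit for testing. SOSTDC1, a BMP and WNT antagonist of epithelial appendages, had 134, 82.1, 65.1 and 76.9 in parenchyma, 25.9, 51.6 and 57.0 in close stroma and 5.87, 8.4, 3.39 and 3.23 in far stroma, with far stroma under every other sample. It rose in parenchyma (log2 3.89 ± 0.38 SE, adjusted p = 4.37e-06) and close stroma (log2 2.88 ± 0.41 SE, adjusted p = 0.000344), and KCP, which enhances BMP and restrains TGF-beta signals, rose in parenchyma (log2 2.38 ± 0.48 SE, adjusted p = 0.00136).

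Among co-receptors, 2 rose and 3 of 6 fell in parenchyma against far stroma. TMEFF2, a membrane protein with follistatin domains, had 0.75, 0, 0 and 0.92 in parenchyma, 26.8, 3.75 and 7.25 in close stroma and 104, 62.4, 38.4 and 64.5 in far stroma. It held 2 reads in parenchyma and 232 in far stroma, a pooled ratio of 0.00607 (95% counting interval 0.000731 to 0.0222), and fell (log2 -5.57 ± 0.55 SE, adjusted p = 5.23e-06). It fell also in close stroma (log2 -2.64 ± 0.60 SE, adjusted p = 0.00913). The TMEFF2 call of close against far stroma was lost without the close stroma of heifer 4 (adjusted p = 0.0583). TMEFF2 was lower in parenchyma than in close stroma too (log2 -2.93 ± 0.60 SE, adjusted p = 0.0116). The TMEFF2 call of parenchyma against close stroma was lost without the close stroma of heifer 3 (adjusted p = 0.0577). For TMEFF2 the same was seen with a pseudocount of 5 (adjusted p = 0.0525). Endoglin (ENG), the endothelial partner of ACVRL1, fell in parenchyma (log2 -1.21 ± 0.28 SE, adjusted p = 0.00305), and the BMP co-receptor RGMA (log2 1.27 ± 0.24 SE, adjusted p = 0.00075) and TMEFF1 (log2 2.42 ± 0.52 SE, adjusted p = 0.00188) rose, TMEFF1 having reached the limit of 10 in parenchyma alone. TMEFF1 also rose in close stroma (log2 1.79 ± 0.56 SE, adjusted p = 0.0448). The TMEFF1 call of close against far stroma was lost without the parenchyma of heifer 1, 3, 4 or 5, the close stroma of heifer 4 or 5 or the far stroma of heifer 3, 4 or 5 (adjusted p = 0.052 to 0.168). For TMEFF1 the same was seen with a pseudocount of 0.5, with a pseudocount of 5, by edgeR, by DESeq2 or in a fit of the 2 regions alone (adjusted p = 0.0528 to 0.0969).

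Intracellular regulators gave 6 higher and 2 lower of 16. TGIF2, a SMAD co-repressor, averaged 350.4 ± 51.2 in parenchyma, 187 ± 48.1 in close stroma and 63.5 ± 7.94 in far stroma and rose in parenchyma (log2 2.44 ± 0.21 SE, adjusted p = 1.32e-06) and close stroma (log2 1.52 ± 0.22 SE, adjusted p = 0.000428) against far stroma. TGIF2 also rose in parenchyma against close stroma (log2 0.92 ± 0.22 SE, adjusted p = 0.0261). The TGIF2 call of parenchyma against close stroma was lost without the parenchyma of heifer 3, 4 or 5 or the close stroma of heifer 3 or 5 (adjusted p = 0.0665 to 0.137). The ubiquitin ligase NEDD4L, which removes active SMADs, rose in parenchyma (log2 2.03 ± 0.24 SE, adjusted p = 2.22e-05) and close stroma (log2 1.70 ± 0.26 SE, adjusted p = 0.000631). The receptor-binding protein FKBP1A (log2 -0.76 ± 0.20 SE, adjusted p = 0.00658) and the deubiquitinase USP15 (log2 -0.45 ± 0.12 SE, adjusted p = 0.00907) fell in parenchyma, both losing their calls with library total scaling (adjusted p = 0.114 and 0.858).

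Genes commonly used as targets of the pathway gave 2 higher and 8 lower of 15 in parenchyma against far stroma. The homeobox genes MSX1 and MSX2, both BMP targets, went opposite ways. MSX1 had 52.8, 35.8, 39.2 and 33.9 in parenchyma, 196, 59.1 and 83.3 in close stroma and 233, 270.1, 331 and 297 in far stroma (log2 -2.79 ± 0.32 SE, adjusted p = 1.65e-05 for parenchyma over far stroma), and MSX2 had 79.2, 134, 109.6 and 246 in parenchyma, 45.1, 108 and 101 in close stroma and 20.6, 14.4, 31.6 and 21.0 in far stroma (log2 2.57 ± 0.39 SE, adjusted p = 0.000155). For both genes parenchyma and far stroma did not overlap. MSX1 was lower in parenchyma than in close stroma (log2 -1.29 ± 0.34 SE, adjusted p = 0.0404). The MSX1 call of parenchyma against close stroma was lost without the parenchyma of heifer 3, 4 or 5, the close stroma of heifer 3 or 5 or the far stroma of heifer 3 (adjusted p = 0.053 to 0.169). For MSX1 the same was seen with the heifer as a block (adjusted p = 0.0501), or in a fit of the 2 regions alone or with heifers 3, 4 and 5 alone (0.0533 to 0.0645). The rise of MSX2 in close stroma (log2 1.86 ± 0.42 SE, adjusted p = 0.00922) was lost without the close stroma of heifer 4 or 5 (adjusted p = 0.0547 to 0.0601). RUNX2, a transcription factor of bone that is also found in mammary epithelium, rose in parenchyma (log2 2.39 ± 0.33 SE, adjusted p = 8.01e-05) and close stroma (log2 1.72 ± 0.36 SE, adjusted p = 0.00582). CYR61, a matricellular protein, fell in parenchyma against far stroma (log2 -2.20 ± 0.42 SE, adjusted p = 0.000891) and close stroma (log2 -2.03 ± 0.45 SE, adjusted p = 0.0185). The CYR61 call of parenchyma against close stroma was lost without the parenchyma of heifer 4 or 5 or the close stroma of heifer 3 (adjusted p = 0.0529 to 0.0965). COL1A1, a chain of type I collagen, fell in close against far stroma (log2 -2.28 ± 0.69 SE, adjusted p = 0.0402). The COL1A1 call was lost without the close stroma of heifer 4 or 5 or the far stroma of heifer 1, 3 or 4 (adjusted p = 0.0605 to 0.209). For COL1A1 the same was seen with the heifer as a block (adjusted p = 0.0586), or by edgeR, by DESeq2, in a fit of the 2 regions alone or with heifers 3, 4 and 5 alone (0.0684 to 0.127). TGFBI, a matrix protein named for its induction by TGF-beta, fell in close stroma (log2 -1.69 ± 0.33 SE, adjusted p = 0.00401).

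**Figure D5:**
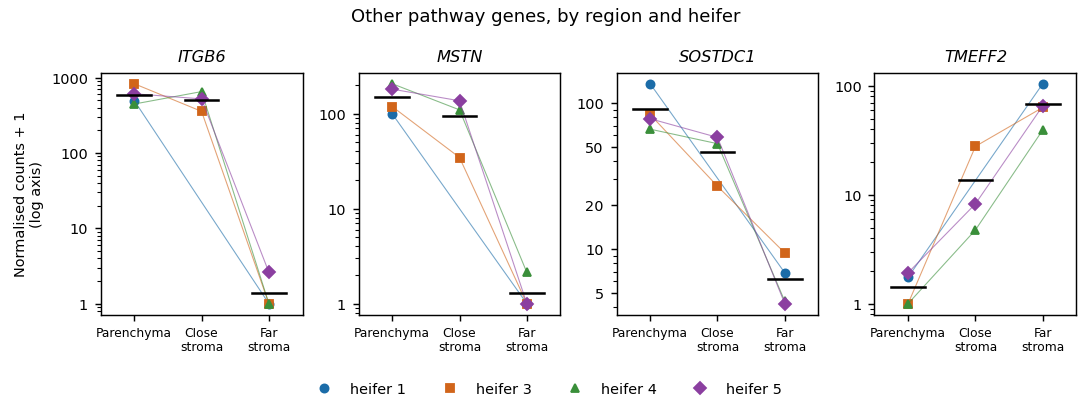
Normalised counts + 1 (log axis) of ITGB6, MSTN, SOSTDC1 and TMEFF2 in parenchyma, close stroma and far stroma (x axis), with points for samples, lines for heifers and bars for region means. ITGB6 and MSTN are at 1 read in all over far stroma, SOSTDC1 is lowest there, and TMEFF2 is highest there and at 2 reads in all over parenchyma.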

How the data were processed

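Poly A RNA was sequenced from 11 mammary samples of 4 heifers, per the labels. Tools named in the submitters' processing notes are cutadapt, STAR, HTSeq and DESeq2, without versions or roles, and the build named there is ARS-UCD1.2. The authors deposited a signal headed normalised counts for each of 16279 genes and each sample. Within a sample, 100% of these values were within 0.01 of whole multiples of 1 smallest step, which is 1 read, and the reads recovered in this way totalled 7274474 to 11156909.

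Values were transformed to log2(value + 1), which understates changes of low genes, and fitted with limma 3.58.1 (R 4.3.3, with a mean-variance trend) for all 3 regions together. The test took 14596 genes with a group mean of at least 10 in some region. Adjustment by Benjamini-Hochberg covered all of these per comparison, and an adjusted p under 0.05 counted as passing. The planned count test (edgeR) was meant for raw counts. Since the table is normalised, limma was used, and edgeR 4.0.16 and DESeq2 1.42.0 on the recovered reads served as alternatives. The code was tested on simulated data. For named genes with 1 to 3 reads in a region, pooled ratios carry a 95% counting interval, which covers counting error only, as PCR copies cannot be recognised.

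Replicate numbers are heifer numbers and so pair the samples. Same-heifer deviations from the region means correlated at 0.117 to 0.383 (10 pairs), and those of different heifers at -0.349 to 0.224 (30 pairs). The main fit has no block for the heifer, and the blocked value is given where it changes a call. P-values reflect the spread between these animals.

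The 58 members and all gene lists were chosen with earlier results of these data known. Full values are given for the 12 called members per comparison with the largest difference and a mean of at least 50, plus 20 set members. Other lists name up to 2 called genes per direction. Further members described in full were chosen after their values were seen. All 58 symbols matched RefSeq genes of ARS-UCD2.0, a table used for names and for the 12 members that overlap another gene there. LEFTY2, INHBC, INHBE, HJV, TDGF1, CRIPTO, CFC1, CER1, NBL1, DAND5, FSTL5, PMEPA1, CCN1, CCN2, HAMP and the marker TPSB1 were not analysed here. CTGF and CYR61 stand under these older symbols.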

Additional observations from a re-analysis of the deposited data

Results flagged for a closer look

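Among 116 groups of 4 samples (58 members in parenchyma and in far stroma), 11 held a sample whose gap to its nearest neighbour exceeded Dixon's 95% critical value. Chance flags about 1 in 20 groups where values are normally distributed. The gaps were taken on values without a log, and all 11 flagged values were the highest of their group. Their number is therefore not read as an excess over chance. Of the 11 flagged samples, 4 were the parenchyma of heifer 5. CHRDL1, the BMP-binding antagonist, was 769.94 there and 354.49 to 404.15 in the other parenchyma samples. BMP5 was 32.96 there and 3.77 to 8.02 in the others, noggin (NOG) 11.9 and 0 to 1.78, and LTBP3, a binder of latent TGF-beta, 6060.68 and 3130.2 to 3258.06. In CHRDL1, BMP5 and NOG the outlying sample is the parenchyma nearest to the stromal levels. Its adipocyte marker sum (1672) was the lowest of the parenchyma samples, its fibroblast sum was 166138, against 173107, 59914 and 77606 in heifers 1, 3 and 4, and its endothelium sum 9286 was the highest. Their part was not tested.

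The parenchyma of heifer 1 stood apart in CHRDL2 (297.08, with 7.13 to 27.64 in the others), BMPR2 (1025.46, with 679.7 to 735.15) and ACVR2A (301.61, with 158.38 to 172.93). SMAD4 was 1095.98 in the parenchyma of heifer 3 (921 to 947.56 in the others) and ID4 445.7 in that of heifer 4 (356.92 to 366.2). In far stroma, GDF5 was 24.19 in heifer 5 (12.72 to 14.67 in the others), the sample with the fewest reads, and BAMBI 120.76 in heifer 4 (43.21 to 54.81).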

How the results depend on the processing

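No value that passed changed sign under the alternatives run, and 24 of 31 calls in parenchyma against far stroma, 5 of 15 in close against far stroma and 4 of 11 in parenchyma against close stroma passed under all of them. The 5 were ACVR1B, ID4, FST, CHRDL1 and CHRD, and the 4 were CHRDL1, GDF10, BMP5 and BMP2. Members lower in close than in far stroma numbered 6 with library total scaling and 6 in a fit of these 2 regions alone. With heifers 3, 4 and 5 alone, 1 member was higher and 5 were lower in parenchyma than in close stroma. Above the midpoint stood 0 members with the heifer as a replicate block, 0 with a pseudocount of 5 and 0 with heifers 3, 4 and 5. Below it stood 2 by DESeq2 and 0 with these heifers. The midpoint contrast could not be run in a fit of 2 regions. The cause of these changes was not tested.

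Leaving out 1 library at a time gave 6 to 11 members higher and 19 to 21 lower in parenchyma than in far stroma. In close against far stroma it gave 2 to 5 higher and 3 to 13 lower. In parenchyma against close stroma it gave 1 to 3 higher and 3 to 9 lower. It gave 0 to 1 above and 0 to 1 below the midpoint. With the heifer as a replicate block in the paired fit, members higher and lower numbered 10 and 22 in parenchyma against far stroma, 4 and 13 in close against far stroma and 2 and 7 in parenchyma against close stroma, with 1 below the midpoint.

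Library total scaling shifted the median of all genes by 0.42 on the log2 scale in parenchyma over far stroma, 0.34 in close over far stroma and 0.08 in parenchyma over close stroma, so that small falls such as that of TGFBR2 (log2 -0.22 with that scaling) passed in the main scaling only, and small rises such as that of TGFB1 (log2 0.83) in that scaling. With 3 or 4 animals a region and members of few reads (GDF2, NOG, CHRDL2), small differences were not detectable at this depth.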
